A study of Mus musculus with 7 samples.

Results

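Trp53, the mouse gene for the tumor suppressor p53, was followed with Cdkn2a, which encodes the p53 regulator ARF, and 8 genes that p53 is known to switch on. The tumors were subcutaneous mouse pancreatic ductal adenocarcinomas (PDA). Their cancer cells had or had not been edited at Krt19, the gene of the epithelial keratin KRT19. The members were the rows of the deposited expression table named Trp53, Cdkn2a, Cdkn1a, Mdm2, Ccng1, Bax, Bbc3, Phlda3, Sesn2 and Trp53inp1, which is 10 of 38026 genes, and all 10 passed the filter on low values. RNA of 7 whole tumors was sequenced, 4 from sgScramble cells (replicates 1 to 4) and 3 from sgKrt19 cells (replicates 5, 6 and 8), each harvested 2 weeks after inoculation. Both groups came from line 1242, a single line that was derived from a tumor of a mouse with the conditional allele LSL-Trp53 R172H/+ and the Pdx1-Cre transgene, in which a pancreatic promoter drives the recombinase. The cells of both groups therefore go back to the same mouse genotype with the mutant Trp53 allele. Whether line 1242 kept the unmutated Trp53 allele is not stated in the sources. Both groups carry Cas9 with a guide RNA, either scrambled (sgScramble) or directed at Krt19 (sgKrt19), after lentiviral transduction and puromycin selection. The sources do not say whether the sequenced tumors came from a polyclonal culture or from 1 clone. The hosts were C57BL/6 mice, 6 wk old when bought and housed for 2 wk, with an intact immune system and unmodified Trp53.

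p53 is a transcription factor that is held at a low level by the ubiquitin ligase MDM2 and accumulates after DNA damage, oncogene activity or other stress. ARF, one product of Cdkn2a, binds MDM2 and frees p53, and the other product, p16INK4A, inhibits the cyclin D kinases CDK4 and CDK6. Active p53 raises genes that arrest the cell cycle, start apoptosis, limit growth signaling and feed back on p53 itself, and in the pancreas loss or missense mutation of p53 is a common step toward invasive cancer. R172H, the mouse counterpart of a human hotspot mutation in the DNA-binding domain, impairs this activation.

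The codon that the R172H allele changes is shown because gene-level reads pool every Trp53 transcript in a tumor, from the cancer cells and from the host, whatever the allele. In the 390-codon Trp53 reading frame of the GENCODE annotation (transcript Trp53-203), the codon numbered in R172H lies in exon 5 at chr11:69588511-69588513 of GRCm38, on the plus strand. It encodes arginine, and is set in capitals within the 33 bases of chr11:69588496-69588528.
Trp53 exon 5, reference: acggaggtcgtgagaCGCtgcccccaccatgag

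p53 binds DNA as a tetramer at pairs of a 10-base half-site, so the promoters of the members were searched for the p53 half-site consensus, which reads the same on both strands. RefSeq windows of 300 bases (GRCm38.p6), from 250 before to 50 after a gene's start, were matched by symbol for 9 of the 10 members, and some members have several starts. Half-sites are in capitals in the 50-base stretches below, which are shown because genes that share the motif in this window differed in how they behaved between the groups. Each is written in the direction of its gene: Trp53 from chr11:69580264-69580313 (plus strand), Cdkn1a from chr17:29090886-29090935 and chr17:29090908-29090957 (plus strand), Mdm2 from chr10:117710915-117710964 (minus strand), Ccng1 from chr11:40755442-40755491 (minus strand) and Bax from chr7:45467070-45467119 (minus strand).
Trp53: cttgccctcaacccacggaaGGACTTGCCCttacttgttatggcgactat
Cdkn1a first half-site: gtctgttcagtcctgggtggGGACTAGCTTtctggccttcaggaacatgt
Cdkn1a second half-site: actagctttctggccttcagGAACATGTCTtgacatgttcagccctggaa
Mdm2: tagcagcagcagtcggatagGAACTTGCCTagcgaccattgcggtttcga
Ccng1: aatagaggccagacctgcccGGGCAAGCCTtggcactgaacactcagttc
Bax: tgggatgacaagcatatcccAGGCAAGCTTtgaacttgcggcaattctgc

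The half-sites began 75 bases upstream of the start of Trp53, 73 and 51 upstream of the first of the Cdkn1a starts, 186 upstream of Mdm2, 185 upstream of Ccng1 and 201 upstream of Bax. At least 1 half-site was found for these 5 members, whereas Cdkn2a, Bbc3, Phlda3 and Sesn2 had none in their windows. Counted by window, 5 of the 13 windows of the members hold a half-site, against 8.36% of all 32851 promoter windows. Cdkn1a was the only member with 2 half-sites no more than 13 bases apart, which 24 of all windows (0.073%) have. Its second half-site lies 2841 bases upstream of the other annotated start of Cdkn1a. These matches are letters in a window, and binding was not measured.

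Values below are normalized read counts, each gene's reads over a scaling factor set for that library, with the SD over the tumors of a group after ±. Differences were tested with limma on log2(value + 1) across 21322 genes, and log2 fold changes (sgKrt19 minus sgScramble) carry a standard error (SE) and a Benjamini-Hochberg adjusted p over all genes tested. Libraries held 40781199 to 44972100 reads. Krt19, the targeted gene, was read at 25574, 21179, 27618 and 17841 in sgScramble tumors and at 1606, 1960 and 2470 in sgKrt19 tumors, every one below every control. The groups differed at very many genes, with 34.0% of all tested genes past the threshold. Markers of other cells also differed. Of 10 skeletal muscle markers 10 were higher in sgKrt19 tumors, with a summed level of 20807 to 30065 against 99.4 to 2559 in sgScramble, where replicate 3 alone exceeded 115. Ckm, Myh4 and Pvalb were at 0 in 1 or more of the control libraries. Of the 10 leukocyte markers 6 were higher (summed level 14703 to 20737 against 9194 to 12944). Of the 10 endothelial markers 6 were higher (7789 to 9263 against 5170 to 7214), and of the 10 epithelial cancer cell markers 5 were higher (278489 to 285640 against 136238 to 186403) and the other 5 did not pass. The sum is mostly Krt8 and Krt18, which were among the higher ones, whereas Krt7 (log2 fold change −1.03, limma adjusted p = 0.115), Cldn4 (−1.23, 0.149), Sox9 (−0.075, 0.609) and Epcam (0.064, 0.943) overlapped between the groups. None of 10 fibroblast markers passed with limma (1 had an unadjusted p under 0.05), and their summed levels overlapped (126969 to 149172 against 116321 to 266383). In whole tumors, fewer cells of a type and less RNA per cell cannot be told apart, and the part of these other cells in the results below was not tested.

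Among the members, Cdkn1a and Phlda3 rose in sgKrt19 tumors, Trp53 and Trp53inp1 fell, and the other 6 did not pass the test. The 2 higher members are 20% of the 10, where 17.9% of all tested genes were called higher, and the 2 lower are also 20%, where 16.0% of all genes were called lower. These shares are near those of all genes, and the list as a whole did not stand out by its number of calls. The groups did not overlap for 4 members (Trp53, Cdkn1a, Bax and Phlda3), or 40%, against 41.1% of all tested genes. The median log2 fold change of the 10 was 0.015, against 0.0072 for all tested genes.

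**Figure D1:**
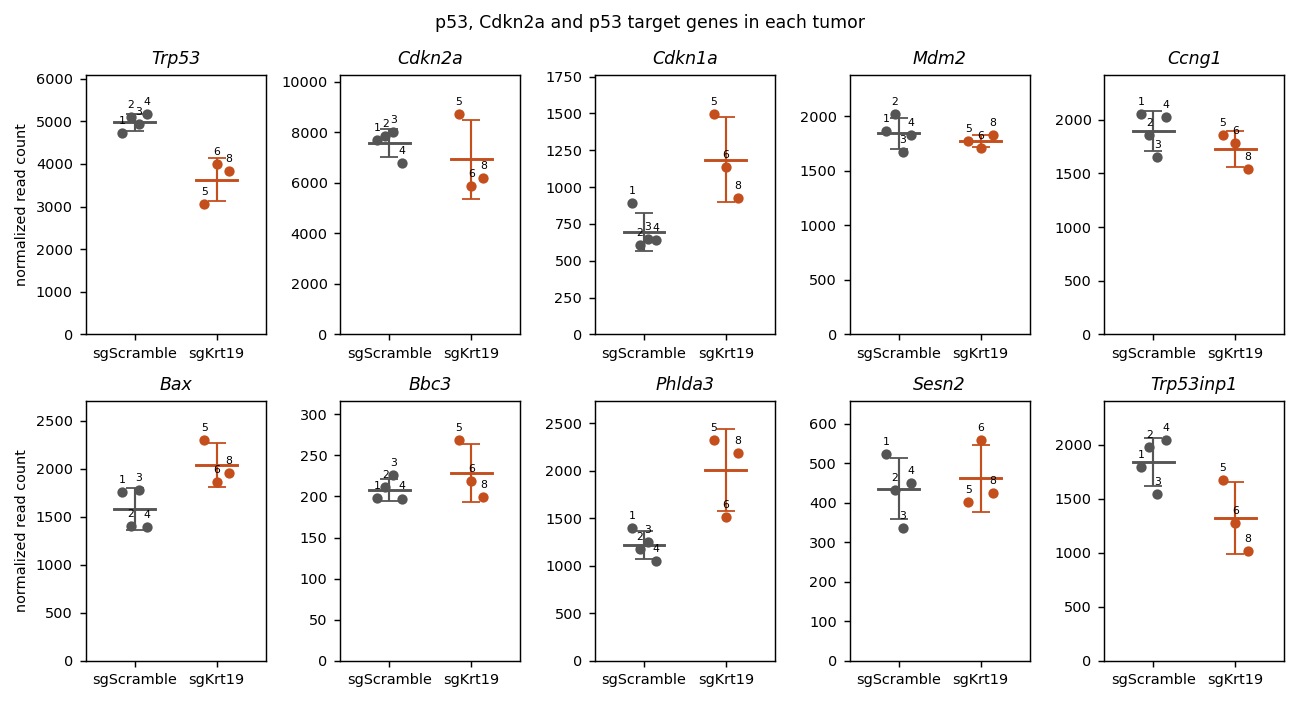
Normalized read counts (vertical axes, from 0) of the 10 genes in each tumor, with sgScramble in gray and sgKrt19 in orange. Points are single tumors labelled by replicate number, horizontal bars are group means and error bars are SDs (n = 4 and n = 3). The sgKrt19 points of Trp53 lie below all controls and those of Cdkn1a, Bax and Phlda3 above all controls, whereas the points of the other genes overlap.

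Trp53 (ENSMUSG00000059552.13, plus strand, chr11:69580359-69591873) was read at 4717, 5090, 4924 and 5165 in sgScramble replicates 1 to 4 and at 3054, 4005 and 3837 in sgKrt19 replicates 5, 6 and 8. The controls lay close together (4974 ± 199, SD, n = 4), every sgKrt19 tumor was below the lowest of them (3632 ± 507, SD, n = 3), and replicate 5 was lowest. The log2 fold change was −0.46 (adjusted p = 0.0136 by limma, SE 0.117), a ratio of means of 0.730, and it passed the threshold under each of the 15 other settings tried. Trp53-ps, a processed Trp53 pseudogene on chromosome 17 whose reads may be shared with Trp53, held 40.0 to 81.6, far below Trp53 in every tumor. Its values were also lower in each sgKrt19 tumor (46.2, 40.0 and 44.1) than in each control (70.6, 54.3, 59.4 and 81.6), a change of −0.59 that misses the threshold (limma adjusted p = 0.0619). No annotated exon of another gene overlaps those of Trp53.

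Many genes around Trp53 were also called lower. Among protein-coding genes with a mean value of at least 100, 42 others start within 0.5 Mb of the Trp53 start, and their median log2 fold change was −0.44, close to that of Trp53 itself. Of these 42 genes 21 (50%) were called lower and 4 higher, whereas of all 12302 such genes 17.2% were called lower and 19.2% higher, with a median of 0.015. Within 2 Mb the median of 87 genes was −0.26, and within 5 Mb that of 120 genes was −0.20. Chromosome 11 as a whole, with 1014 such genes, had a median of −0.21, the lowest of the 20 chromosomes. Of its 1013 such genes other than Trp53, 346 (34.2%) were called lower and 104 higher. Krt19 lies on the same chromosome, and 6 of the 11 genes within 0.5 Mb of it were called lower, with a median of −0.38. Around the other called members, the medians within 2 Mb were 0.28 for Phlda3 (35 genes), 0.19 for Cdkn1a (43 genes) and −0.029 for Trp53inp1 (19 genes). Around Phlda3 14 genes were called higher and 4 lower, around Cdkn1a 7 and 5, and around Trp53inp1 2 and 3. Neighboring genes are not independent of each other and the distances were chosen after the values had been seen, so no test is given. Wrap53, which starts beside Trp53 on the opposite strand, was read at 530 to 676 in controls and at 476 to 500 in sgKrt19 tumors, groups that do not overlap (log2 fold change −0.26, limma adjusted p = 0.130).

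**Figure D2:**
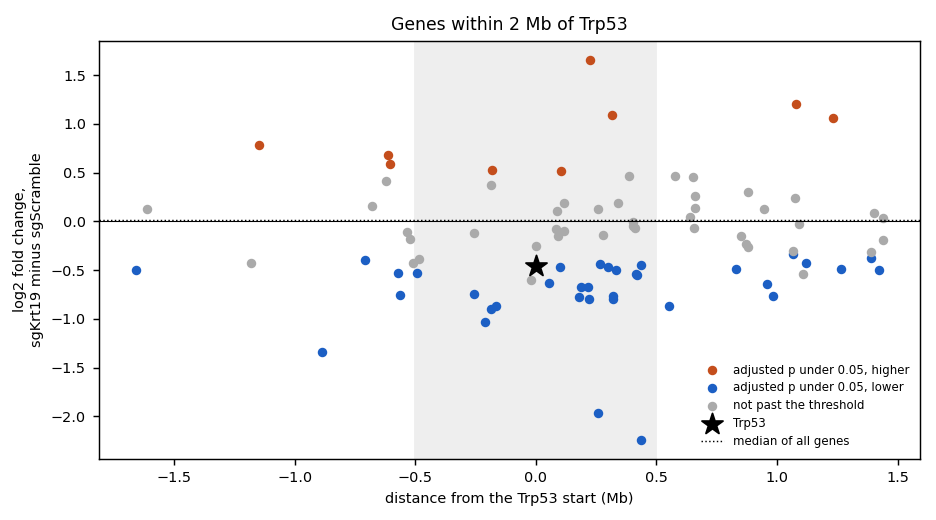
Log2 fold change (vertical axis, sgKrt19 minus sgScramble) of protein-coding genes with a mean value of at least 100, by the distance of their start from that of Trp53 in Mb (horizontal axis). The star is Trp53, colors mark adjusted p under 0.05, the shaded band spans 0.5 Mb to each side and the dotted line is the median of all 12302 genes (0.015). Within the band 21 of 42 neighbors were called lower and 4 higher.

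Cdkn2a (ENSMUSG00000044303.6, minus strand, chr4:89274471-89294653) was read at 7687, 7859, 8015 and 6793 in controls and at 8716, 5883 and 6195 in sgKrt19 tumors. Replicate 5 was above all controls and the other two sgKrt19 tumors were below all of them, so the groups overlap. The difference of −0.15 on the log2 scale (95% interval −0.48 to 0.18, limma adjusted p = 0.445) did not pass. The row holds both products of the locus: the p16INK4A transcript begins in the exon at chr4:89281986-89282192 and the ARF transcript in the exon at chr4:89294334-89294653, and both run on into the same exons 2 and 3 in different reading frames. Gene-level reads do not separate them. Per kilobase of exon, Cdkn2a was the most highly read of the members in both groups (6475 ± 467, SD, n = 4, and 5914 ± 1326, SD, n = 3). Its neighbor Cdkn2b, which encodes the related CDK inhibitor p15INK4B, ranged from 2334 to 2544 in controls and from 2031 to 2674 in sgKrt19 tumors (log2 fold change −0.12, limma adjusted p = 0.443). For Cdkn2b as for Cdkn2a, replicate 5 was highest and the other two sgKrt19 tumors were below all controls.

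Cdkn1a encodes p21, the inhibitor of cyclin-dependent kinases through which p53 halts the cell cycle (ENSMUSG00000023067.14, plus strand, chr17:29090976-29100727). It was read at 891, 606, 649 and 641 in controls and at 1495, 1139 and 924 in sgKrt19 tumors. Each sgKrt19 tumor lay above each control, but by little for the nearest pair, sgKrt19 replicate 8 (924) and sgScramble replicate 1 (891). The means were 697 ± 131 (SD, n = 4) and 1186 ± 288 (SD, n = 3), and the log2 fold change of 0.76 (adjusted p = 0.0119 by limma, SE 0.185) passed under each of the 15 other settings, with 0.54 to 0.92. With library size as the only scaling it was 0.54, the lowest. The control tumor with low-level muscle RNA, replicate 3, had a Cdkn1a value of 649, within the range of the other controls. Its summed level of muscle markers was 2559, far below the 20807 to 30065 of the sgKrt19 tumors. The part of muscle in the Cdkn1a change was not tested. Exons of a gene on the opposite strand cover 7.68% of the Cdkn1a exon bases, and whether the counting used strand is not given in the sources used here.

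Mdm2 (ENSMUSG00000020184.15, minus strand, chr10:117688875-117710758) and Ccng1 (ENSMUSG00000020326.7, minus strand, chr11:40748552-40755311) are targets that feed back on p53: MDM2 marks p53 for degradation, and cyclin G1 acts on MDM2 through a phosphatase. Mdm2 was read at 1864, 2021, 1675 and 1827 in controls and at 1776, 1714 and 1830 in sgKrt19 tumors, which all fall inside the range of the controls. Its log2 fold change was −0.056, with a 95% interval of −0.28 to 0.17 (limma adjusted p = 0.695). Ccng1 was read at 2052, 1859, 1650 and 2028 in controls and at 1857, 1784 and 1540 in sgKrt19 tumors, and the groups overlap. The Ccng1 log2 fold change was −0.13, with a 95% interval of −0.40 to 0.13 (limma adjusted p = 0.396). The intervals of Mdm2 and Ccng1 end below the lower bound of Cdkn1a (0.35).

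The contrast between Cdkn1a and Mdm2 can be read within each tumor, where the size factor cancels. The log2 ratio of Cdkn1a to Mdm2 was −1.07, −1.74, −1.37 and −1.51 in sgScramble replicates 1 to 4 and −0.25, −0.59 and −0.99 in sgKrt19 replicates 5, 6 and 8. All 3 sgKrt19 tumors lay above all 4 controls, and the group means differed by 0.81. For Phlda3 to Mdm2 the ratio was −0.79 to −0.42 in controls and −0.18 to 0.39 in sgKrt19 tumors, again without overlap. These pairs were chosen after their values had been seen, so the ratios are given with no test.

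Bax, Bbc3 and Phlda3 act in or toward apoptosis. BAX permeabilizes the mitochondrial outer membrane, PUMA (the product of Bbc3) blocks the proteins that restrain BAX, and PHLDA3 limits AKT by competing for its membrane lipid. Phlda3 (ENSMUSG00000041801.5, plus strand, chr1:135766119-135769136) was read at 1396, 1177, 1250 and 1054 in controls and at 2320, 1511 and 2193 in sgKrt19 tumors. Every sgKrt19 tumor was above every control, with replicate 6 nearest to them. Control replicate 3 lay within the range of the other controls, and for Phlda3 as for Cdkn1a the part of muscle was not tested. The means of 1219 ± 143 (SD, n = 4) and 2008 ± 435 (SD, n = 3) gave a log2 fold change of 0.70 (adjusted p = 0.00898 by limma, SE 0.162), which passed under each of the 15 other settings, with 0.49 to 0.89.

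Bax (ENSMUSG00000003873.11, minus strand, chr7:45461697-45466898) was read at 1755, 1402, 1783 and 1389 in controls and at 2296, 1866 and 1962 in sgKrt19 tumors. The sgKrt19 tumors were again above all controls, although the controls formed a higher pair (replicates 1 and 3) and a lower pair (2 and 4). This order was not particular to Bax. Replicates 1 and 3 also lay above 2 and 4 for Cdkn1a, Phlda3, Perp and Rps27l, and below them for Trp53, Hipk2 and Mdm4. For Mdm2 and Sesn2 the pairs overlapped. The log2 fold change of 0.37 (95% interval 0.077 to 0.67) had a limma adjusted p of 0.0529 and missed the threshold. It passed with DESeq2 (adjusted p = 0.0498) and without sgScramble replicate 1 or 3 (limma adjusted p = 0.0401 and 0.0411). Exons of a transcript on the same strand, Gm45808, cover 12.2% of the Bax exon bases, so its reads may be shared. Bbc3 (ENSMUSG00000002083.13, plus strand, chr7:16308393-16318205) was read at 198, 211, 226 and 198 in controls and at 268, 219 and 200 in sgKrt19 tumors. Only replicate 5 exceeded the controls, and the log2 fold change was 0.13, with a 95% interval of −0.22 to 0.47 (limma adjusted p = 0.541). Scaling by library size alone turned its sign, to −0.087.

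Sesn2 and Trp53inp1 belong to the stress responses of p53. Sestrin 2 restrains the growth kinase mTORC1 and oxidative damage, and TP53INP1 takes part in autophagy and in the phosphorylation of p53. Trp53inp1 (ENSMUSG00000028211.11, plus strand, chr4:11156431-11174379) was read at 1790, 1979, 1546 and 2038 in controls and at 1673, 1275 and 1012 in sgKrt19 tumors. The groups overlap, since sgKrt19 replicate 5 lay above control replicate 3. The log2 fold change was −0.50 (adjusted p = 0.0444 by limma, SE 0.170), and the call was lost without any filter on low values (adjusted p = 0.0504) and in 5 of the 7 fits that leave out 1 tumor. Those were the fits without sgKrt19 replicate 6 or 8 (limma adjusted p = 0.0993 and 0.159) and without sgScramble replicate 1, 2 or 4 (0.0629, 0.108 and 0.103). Sesn2 (ENSMUSG00000028893.8, minus strand, chr4:132492032-132510501) was read at 523, 433, 335 and 450 in controls and at 402, 557 and 424 in sgKrt19 tumors, with wide overlap. The Sesn2 log2 fold change was 0.087, with a 95% interval of −0.31 to 0.48 (limma adjusted p = 0.727), and its sign turned with library size as the only scaling, without sgScramble replicate 3 and without sgKrt19 replicate 6.

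**Figure D3:**
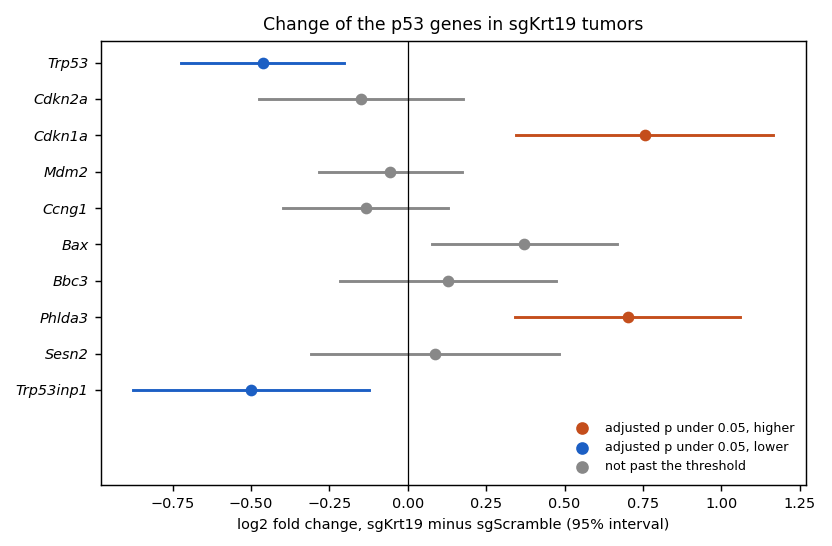
Log2 fold change of each gene (horizontal axis, sgKrt19 minus sgScramble) with its 95% interval from limma. Orange and blue mark genes with an adjusted p under 0.05, higher (Cdkn1a and Phlda3) or lower (Trp53 and Trp53inp1), and gray the 6 genes that missed the threshold, of which Bax (adjusted p = 0.0529) was nearest to it.

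Levels between genes were compared per kilobase of exon, as the normalized read count divided by the length of the merged exons. In sgScramble tumors the order of the means was Cdkn2a (6475), Trp53 (1230), Bax (1004), Phlda3 (782), Ccng1 (540), Mdm2 (363), Trp53inp1 (284), Cdkn1a (196), Sesn2 (125) and Bbc3 (98.0). The tumors' values overlapped between Bax and Phlda3, between Trp53inp1 and Cdkn1a and between Sesn2 and Bbc3, and the other neighbors in the order were apart. In sgKrt19 tumors Bax (1295) and Phlda3 (1288) stood before Trp53 (898), and Cdkn1a (334) stood next to Mdm2 (349). Overlaps there joined Bax with Phlda3, Phlda3 with Trp53, Mdm2 with Cdkn1a, Trp53inp1 with Sesn2 and Sesn2 with Bbc3. Spread within a group differed between the members: the SD was 4.0% of the mean for Trp53 and 18.8% for Cdkn1a in controls, and in sgKrt19 tumors it ran from 3.28% for Mdm2 to 25.2% for Trp53inp1.

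Among 16 other family members and upstream regulators of p53, 15 were tested, 5 were called lower (33.3%, against 16.0% of all tested genes) and 0 higher with limma, although 1 had an unadjusted p under 0.05 in the higher direction. DESeq2 called 1 of them higher and edgeR 0. Their median log2 fold change was −0.31, against 0.0072 for all tested genes. The merged exons of the 5 called lower ran from 3173 to 14164 bases, and those of the 10 not called from 3001 to 23629. Hipk2, a kinase that phosphorylates p53 on the way to apoptosis, was read at 833, 1390, 760 and 1809 in controls and at 392, 539 and 306 in sgKrt19 tumors, with no overlap (log2 fold change −1.48, SE 0.301, limma adjusted p = 0.00482). Ppp1r13l, which encodes the p53 inhibitor iASPP, ranged from 735 to 858 in controls and from 452 to 569 in sgKrt19 tumors (log2 fold change −0.67, limma adjusted p = 0.00272). Trp53bp1, whose product binds p53 and directs the repair of DNA breaks, fell by 0.56 on the log2 scale (limma adjusted p = 0.0127). Exons of a gene on the opposite strand cover 15.0% of the Trp53bp1 exon bases. The phosphatase gene Ppm1d, which also lies on chromosome 11 and whose product WIP1 removes activating phosphates from p53, fell by 0.46 (limma adjusted p = 0.0180). Usp7, which encodes the deubiquitinase of p53 and MDM2, fell by 0.31 (limma adjusted p = 0.0361). The Usp7 call was lost with no filter on low values and without sgKrt19 replicate 5 or 8 or sgScramble replicate 2, 3 or 4 (limma adjusted p = 0.0663 to 0.110), and that of Ppm1d without sgKrt19 replicate 6 (0.0516).

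The genes called lower thus include both activators and inhibitors of p53. Mdm4, a close relative of Mdm2 whose product masks the activation domain of p53, ranged from 2152 to 3412 in controls and from 1621 to 2693 in sgKrt19 tumors, which overlap (log2 fold change −0.39, limma adjusted p = 0.163). The family member Trp63 had only 7 to 16 reads per tumor and did not pass (log2 fold change −0.45, limma adjusted p = 0.316). Trp73, the remaining family member, had 0 to 2 reads per tumor, under the floor of 3 reads, and was not tested.

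Of 46 other p53 target genes, 45 were tested, 13 were called higher in sgKrt19 tumors (28.9%, against 17.9% of all tested genes), 5 lower (11.1%, against 16.0%) and 27 did not pass. The median log2 fold change of the 45 was 0.19. Perp, a membrane protein gene of p53-dependent apoptosis and of desmosomes, was read at 1492, 983, 1724 and 1082 in controls and at 3937, 3526 and 3922 in sgKrt19 tumors. Its groups lie far apart, and the change was 1.56 on the log2 scale (adjusted p = 0.000274 by limma, SE 0.184). Btg2, an antiproliferative gene, ranged from 890 to 1029 in controls and from 2051 to 2118 in sgKrt19 tumors (log2 fold change 1.10, SE 0.0998, limma adjusted p = 7.26e-05). Fas, the death receptor gene, ranged from 157 to 262 in controls and from 428 to 565 in sgKrt19 tumors (log2 fold change 1.11, limma adjusted p = 0.00268). Gdf15, which encodes a secreted stress cytokine, was low, at 26.9 to 55.7 in controls and 78.0 to 116 in sgKrt19 tumors (log2 fold change 1.36, limma adjusted p = 0.00639). Rps27l, a ribosomal protein paralog that acts on MDM2 and p53, rose by 0.94 (limma adjusted p = 0.00766), and its reads may be shared with copies of its paralog.

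In the other direction, Plk2, a kinase gene of the p53 response, ranged from 1443 to 1680 in controls and from 736 to 1096 in sgKrt19 tumors (log2 fold change −0.84, SE 0.143, limma adjusted p = 0.00186). Thbs1, the gene of the antiangiogenic protein thrombospondin 1, fell by 0.70 on the log2 scale (limma adjusted p = 0.0111), and Rrm2b, the p53-inducible subunit of ribonucleotide reductase, fell by 0.57 (limma adjusted p = 0.0120). Zmat3, which encodes an RNA-binding protein, fell by 0.45 (limma adjusted p = 0.0152), a call lost without sgKrt19 replicate 5 (0.0540). Ptprv, a phosphatase gene with values of only 30.1 to 117, changed by −0.97 on the log2 scale (limma adjusted p = 0.0435), and this call was lost without a filter and in 6 of the 7 fits that leave out 1 tumor. Those are all but the fit without sgScramble replicate 1. Exons of genes on the opposite strand cover 3.42% to 8.04% of the exon bases of Thbs1, Ptprv and Rrm2b.

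By role, the called genes were spread over the list. Of 10 target genes for stress and metabolism 5 were higher and 0 lower with limma (0 also at an unadjusted p under 0.05 in the lower direction), of 12 for apoptosis 4 were higher and 1 lower, of 8 for DNA repair 2 were higher and 1 lower, of 8 for cell cycle arrest 1 was higher and 2 lower, and of 6 secreted or surface proteins 1 was higher and 1 lower. The noncoding gene Pvt1 was tested and did not pass (log2 fold change −0.45, limma adjusted p = 0.123), and Trp53cor1, with values of 0 to 6.92, was not tested. The shares of all tested genes for these counts are again 17.9% higher and 16.0% lower. The merged exons of the 5 targets called lower ran from 4491 to 11435 bases, and those of the 13 called higher from 816 to 5891. Among the called members they measured 1559 (Phlda3) and 3553 (Cdkn1a) for the higher, and 4045 (Trp53) and 6475 (Trp53inp1) for the lower. The part of gene length in the calls was not tested. With library size only, 7 of the 45 were higher and 9 lower. Leaving out 1 tumor gave 8 to 15 higher, with 8 without sgScramble replicate 2, 9 without sgScramble replicate 4 or sgKrt19 replicate 6 and 10 without sgKrt19 replicate 5 or 8, and the calls over all genes also fell in these 5 fits.

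**Figure D4:**
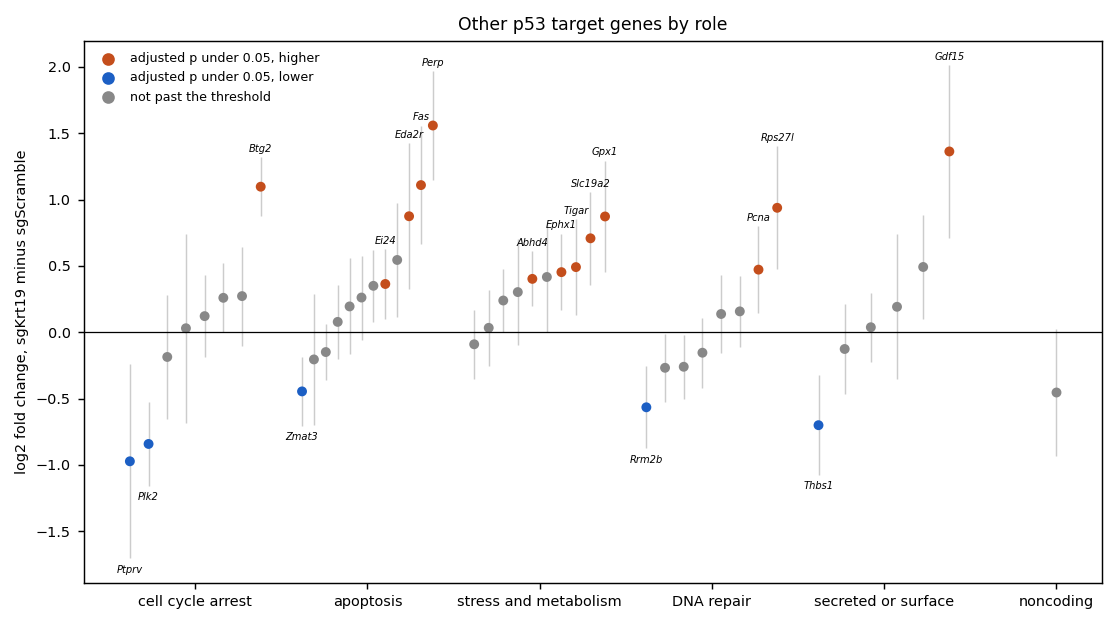
Log2 fold change (vertical axis, sgKrt19 minus sgScramble) with 95% intervals of the 45 other p53 target genes tested, arranged by role and within a role by size. Orange points passed the threshold and were higher (13 genes), blue points passed and were lower (5 genes), gray points did not pass, and the genes that passed are named. Perp stands highest and Ptprv lowest.

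Of 24 cell cycle genes that p53 is known to lower through p21 and the DREAM repressor complex, 7 were called higher in sgKrt19 tumors (29.2%, against 17.9%) and 0 lower with limma, with 0 at an unadjusted p under 0.05 in the lower direction and 0 by edgeR and DESeq2. The median log2 fold change of the 24 was 0.29. The merged exons of the 7 called higher ran from 1868 to 8023 bases. Mybl2, a transcription factor gene of the cycle, had the largest change of those called (log2 fold change 0.73, SE 0.200, limma adjusted p = 0.0193), with 474 to 643 in controls and 758, 1315 and 773 in sgKrt19 replicates 5, 6 and 8. Cdk1, the mitotic kinase gene, was read at 4158, 3054, 3094 and 2993 in controls and at 4945, 5705 and 4326 in sgKrt19 tumors (log2 fold change 0.59, limma adjusted p = 0.0124). The replication helicase gene Mcm5 rose by 0.57 (limma adjusted p = 0.0163) and the cyclin gene Ccna2 by 0.53 (limma adjusted p = 0.0206). Opposite-strand exons cover 12.5% of the exon bases of Ccna2. Values of replicate 6 were the highest among the sgKrt19 tumors for each of these 4 genes, whereas Cdkn1a was highest in replicate 5. Among the controls, replicate 1 was highest for each of the 4 and for Cdkn1a as well (891). How Cdkn1a and these genes vary together was not tested. The count of 7 fell to 2 without sgKrt19 replicate 6, to 3 without sgScramble replicate 2 and to 1 when only library size was scaled. The calls of Mybl2, Mcm5 and Ccna2 were lost in the fit without sgKrt19 replicate 6 and with library size only, those of Mybl2 and Ccna2 also without sgScramble replicate 2, and that of Cdk1 with library size only.

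Of 5 other CDK inhibitor genes, 1 was called higher (20%, near the 17.9% of all tested genes) and 0 lower with limma (0 at an unadjusted p under 0.05 in the lower direction, 0 by edgeR and 0 by DESeq2). The one called was Cdkn2d, which encodes p19INK4D and is named after its values were seen (log2 fold change 0.58, limma adjusted p = 0.0226). Its groups overlap, with sgScramble replicate 1 at 791 and sgKrt19 replicate 8 at 768, and the call was lost with library size only and without sgKrt19 replicate 5 or 6 or sgScramble replicate 2 or 4.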

How the data were processed

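RNA was sequenced in single 76-bp reads from 7 tumors. The authors deposited 1 table of 38026 genes whose values are a signal: reads per gene divided by a size factor of each library. Whole reads were recovered for 100% of the deposited values of every library. Per the labels the build is mm10, and the aligner and counter are not given in the sources used here. The labels name polyA RNA and the study's methods a stranded total RNA kit. Positions came from GENCODE M21 (GRCm38), which held 97.6% of the gene identifiers in the same version, and promoters from RefSeq.

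Genes reaching a value of 10 in 3 or more libraries entered the test in R 4.3.3 with limma 3.58.1 (lmFit, then eBayes with trend) on log2(value + 1), with group as the only term and an adjusted p threshold of 0.05. The pseudocount understates changes of low genes. Alternatives were pseudocounts of 0.5 and 5, no filter, a filter of 50, library-size and TMM scaling, edgeR 4.0.16, DESeq2 1.42.0 and leaving out each tumor. Scripts were tested on simulated data. A value of 2.74 to 3.47 equals 3 reads, and this floor covers counting error only.

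Besides the members and Krt19, genes were named as the 5 with the largest change each way in each pathway list among those called with groups apart, and Trp63, Trp73, Mdm4 and Cdkn2b. Some items that this rule or the labels name are not reported here. The members and lists were chosen with earlier results of these data known. No label ties tumors to a mouse or library batch, so batch and group cannot be told apart, and p-values measure the spread between these samples.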

Additional observations from a re-analysis of the deposited data

Results flagged for a closer look

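In the 4 sgScramble tumors, 40 genes and marker sums were searched for 1 tumor far from the others, and 5 were found, where chance gives about 1 in 20. Cdkn1a in replicate 1 (891, the others 606 to 649) is the control nearest to the sgKrt19 tumors, and without it the log2 fold change of Cdkn1a was 0.88 (limma adjusted p = 0.00555). Cdk1 in the same replicate was 4158, above the 2993 to 3094 of the other controls. Fas in replicate 3 was 157, below the 256 to 262 of the others. Trp73 was at 0 in replicate 3 and at 1 read in each other control, under the floor of 3 reads. The summed level of skeletal muscle markers in replicate 3 was 2559, against 99.4 to 115 in the other controls, and without replicate 3 the members called were 3 higher (with Bax) and 2 lower.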

How the results depend on the processing

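Of 34 genes followed under 15 alternatives, 19 kept their direction and their side of the threshold in all of them, the called members Trp53, Cdkn1a and Phlda3 among them. With library size only, the median log2 fold change of all genes moved to −0.21 and 27.7% of calls were higher in place of 52.8% (2187 higher and 5705 lower). Under this scaling the members called lower were 4 (with Cdkn2a and Ccng1), other p53 target genes were 7 higher and 9 lower, cell cycle genes 1 higher, and other CDK inhibitors 0 higher and 2 lower. Bbc3 (−0.087) and Sesn2 (−0.13) changed sign. Without a filter 1 member was called lower. DESeq2 called 1 p53 regulator and 2 CDK inhibitors higher. Leaving out 1 tumor gave 2481 to 4103 genes higher and 2232 to 3611 lower, 1 to 2 members lower, 8 to 15 other targets higher, 0 to 1 regulators higher, 2 to 8 cell cycle genes higher and 0 to 1 CDK inhibitors higher. The fewest genes were called higher without sgKrt19 replicate 5 and lower without sgScramble replicate 2. The log2 fold change of Sesn2 ranged from −0.057 (without sgKrt19 replicate 6) to 0.18, and was −0.033 without sgScramble replicate 3. Beyond the rescaling itself the cause was not tested. No paired analysis was possible because the groups share no replicate number. Depth limits Trp63, Trp73 and Trp53cor1.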
